A study of Mus musculus with 6 samples.

Results

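The genes described here are 10 components of bone morphogenetic protein (BMP) and activin signalling, chosen by symbol from the 41079 genes listed for cultured mouse microglia. They are the inhibitor of DNA binding genes Id1, Id2, Id3 and Id4, the type I receptors Bmpr1a and Acvr1, the type II receptors Bmpr2 and Acvr2a, the pseudoreceptor Bambi, and Inhba, which encodes a subunit of activin A. RNA-seq had been performed on 3 control and 3 optimized cultures to ask how medium supplements and coating act on microglial gene expression. All libraries came from C57Bl/6N mice aged 1 to 3 days, whose pooled mixed glia were grown in flasks with L-929 conditioned medium and shaken to release microglia. Control cells were kept in serum-free DMEM/F12 without added cytokines. Optimized cultures were kept in the same medium with human TGF-β1, IL-34 and CX3CL1 at 100 ng/mL each, and per the study's methods also with cholesterol and insulin-transferrin-selenium on collagen IV, which the sample labels do not mention. Per the study's methods the flask medium held serum, and microglia were shaken off after weeks in culture. Both groups met serum again briefly while the cells attached. The time in culture after this plating is not given for these libraries in the sources used here. The supplements were added together, so their separate parts cannot be told apart.

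BMPs and activins are ligands of the TGF-β superfamily. They bring together type I and type II receptors, which are serine/threonine kinases, and the type I receptor then phosphorylates SMAD proteins. BMP receptors mainly act on SMAD1, SMAD5 and SMAD9, while activin and TGF-β receptors mainly act on SMAD2 and SMAD3. Both groups of SMADs share SMAD4. ID genes are classical direct targets of BMP signalling. Their proteins contain a helix-loop-helix region without the basic part that contacts DNA, so they hold E proteins away from their DNA sites. TGF-β is a cue on which microglia depend for their homeostatic state in the brain.

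Of the 10 genes, 9 had enough counts to be tested, and 6 of these were higher in optimized cultures with Benjamini-Hochberg adjusted p below 0.05 by the quasi-likelihood test of edgeR, fitted over all genes. They were Id1, Id2, Id3, Bmpr2, Bambi and Inhba. Values are given as log2FC, the log2 fold change of optimized over control, with its standard error (SE) and the adjusted p of that test. Across all 14618 genes tested, 14.7% were called higher. No member was called lower, and the count of lower members was also 0 by unadjusted p below 0.05 in edgeR, in DESeq2 and in limma, while 15.2% of all genes tested were called lower with edgeR. Bmpr1a, Acvr1 and Acvr2a did not pass. The median log2FC was 1.24 over the 9 genes and 0.0079 over all genes tested. The 10 genes were chosen with earlier results of these data known. Inhba also reached the filter on low counts through the optimized libraries. The count and median over tested genes are therefore a description. In 7 of the 9 genes every optimized library was above every control library, which held for 21.4% of all genes tested. Inhba is among the 7, and the choice of genes is the same, so this count is a description as well.

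**Figure D1:**
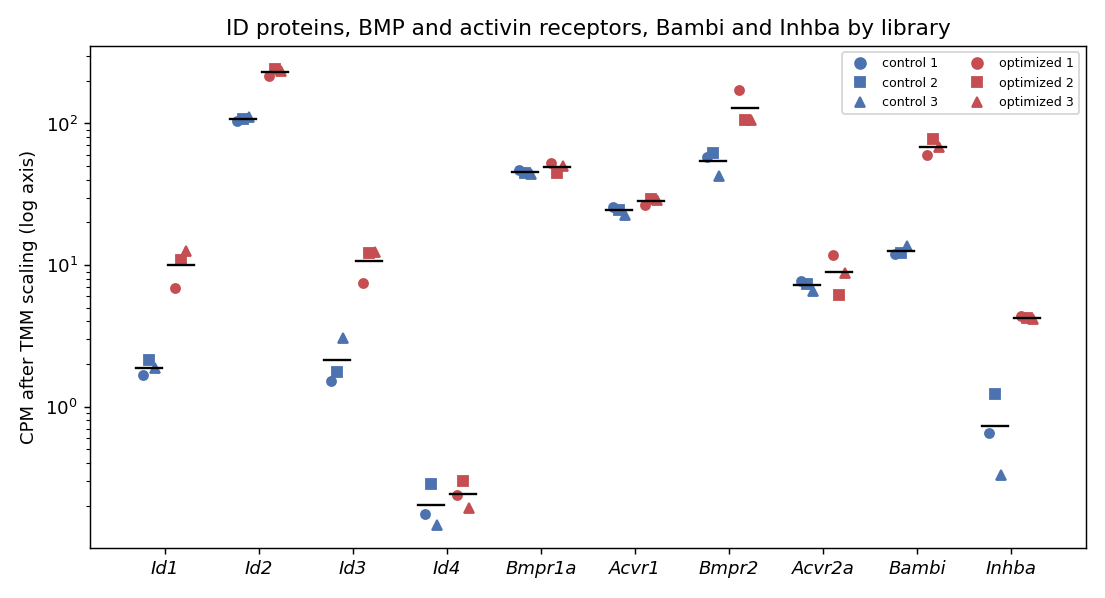
CPM after TMM scaling (log axis) of the 10 genes in each of 3 control (blue) and 3 optimized (red) libraries; marker shape gives the replicate number and horizontal lines the group means. The groups are apart in Id1, Id2, Id3, Acvr1, Bmpr2, Bambi and Inhba, and overlap in Id4, Bmpr1a and Acvr2a.

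Stretches of promoter are shown first for the 6 members with short motifs of a kind that SMAD proteins are known to bind. They include Id2, Id3 and Bmpr2, which rose, and equally Bmpr1a and Acvr2a, which did not pass the test, and Id4, which was not tested. RefSeq promoter windows were at hand for 8 of the 10 genes, and none for Id1 and Bambi. The 250 bases before the start were searched on both strands for GGCGCC, a GC-rich SMAD element, for CAGAC, the core of the other SMAD element, and for CANNTG, the E-box of helix-loop-helix factors. In the lines that follow the matched letters are in capitals, 5′ to 3′ along the gene's strand, with coordinates on GRCm39, and GTCTG is CAGAC read on the other strand.
Id2, chr12:25146305-25146334, minus strand: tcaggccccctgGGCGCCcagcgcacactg
Bmpr2, chr1:59803321-59803350, plus strand: ctccggcggccgGGCGCCgctgcctgcccc
Bmpr1a, chr14:34224684-34224713, minus strand: tgcgcgcgcgccGGCGCCtcttgctcgccc
Id4, chr13:48414432-48414461, plus strand: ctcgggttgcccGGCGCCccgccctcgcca
Acvr2a, chr2:48703921-48703950, plus strand: gcccgccgtcccGTCTGctcggtctcggtt
Id3, upper site, chr4:135870954-135870983, plus strand: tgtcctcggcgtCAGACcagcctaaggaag
Id3, lower site, chr4:135871053-135871082, plus strand: ggacccttggcgGTCTGttttgaataaggg

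GGCGCC was found in 4 of the 8 windows, those of Id2, Id4, Bmpr1a and Bmpr2, and in 9.59% of all 32851 windows of the same length. These windows are rich in G and C, from 62.8% in Id2 to 78.8% in Bmpr1a, and among all windows with at least 60% G and C the share with GGCGCC was 26.1%. The element was thus present both in Id2 and Bmpr2, which rose, and in Bmpr1a, which did not pass the test. CAGAC was found in 2 of the 8 windows, those of Id3 and Acvr2a. It was in 42.2% of all windows and in 38.6% of those with at least 60% G and C. CANNTG was found only in the window of Id2 among these 8, against 66.2% of all windows. In Id3 the matches began 167 and 68 bases before the start. Except for those of Id4 and Inhba, the windows lie wholly in exons annotated in GENCODE M39. A match is a description of the letters and not evidence of binding in these cells.

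Of the 4 ID genes, Id1, Id2 and Id3 rose. Gene positions are on GRCm39. Id2, the ID gene best known from development of lymphoid and dendritic cells, is on chromosome 12 from 25143798 to 25147282. In CPM, counts scaled for library size, it was at 103, 107 and 111 in control libraries 1 to 3 and at 217, 243 and 234 in optimized libraries 1 to 3. The 3 optimized libraries were all well above the controls, and replicates lay close together. Id2 thus rose 2.16-fold (log2FC 1.11, SE 0.08, adjusted p = 6.6e-06).

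Id1, on chromosome 2 from 152566218 to 152579544, is a classical early target of BMP receptors. Controls held 38, 52 and 51 counts of it, optimized libraries 145, 255 and 258. In CPM this was 1.88 ± 0.23 (SD, n = 3) against 10.1 ± 2.89 (SD, n = 3), with optimized library 1 the lowest of its group and still above every control. Id1 rose 5.33-fold (log2FC 2.41, SE 0.24, adjusted p = 4.5e-05).

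Id3, on chromosome 4 from 135870808 to 135873066, encodes a close relative that often moves with Id1. Controls held 35, 43 and 84 counts, optimized libraries 158, 285 and 255. Control library 3 was the highest of the controls and optimized library 1 the lowest of the optimized cultures, and the groups did not overlap. The CPM means were 2.12 ± 0.83 and 10.7 ± 2.75 (SD, n = 3 each). Id3 rose 4.97-fold (log2FC 2.31, SE 0.29, adjusted p = 0.00018).

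Id4, on chromosome 13 from 48414558 to 48419502, is known mainly from neural precursors and astrocytes. Controls held 4, 7 and 4 counts, optimized libraries 5, 7 and 4. These counts were too low for the test, and any difference was not detectable at this depth.

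**Figure D2:**
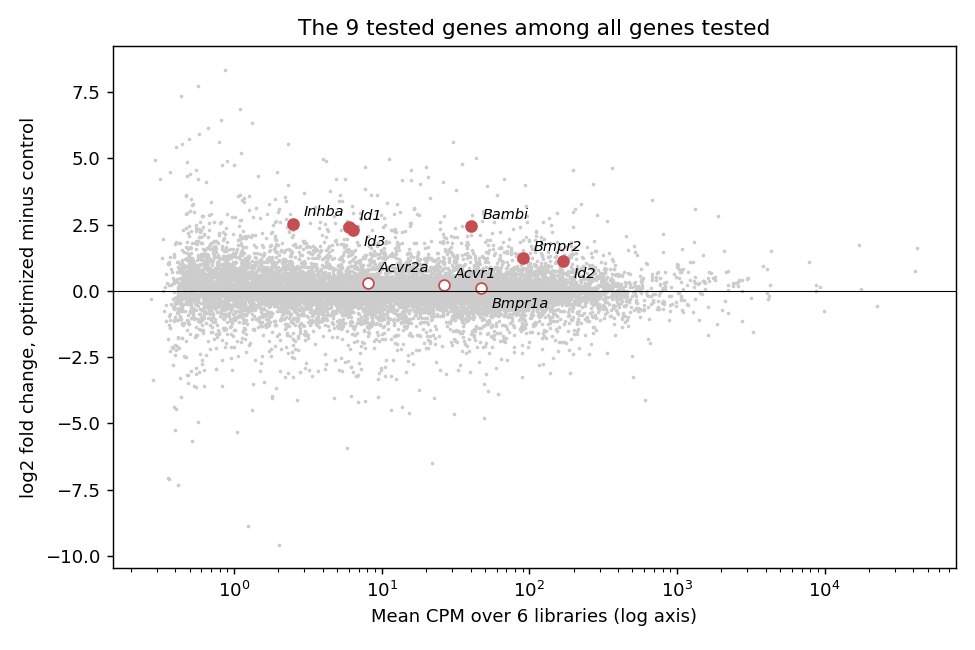
Log2 fold change (optimized minus control) against mean CPM (log axis) for all 14618 genes tested (grey); filled red points passed the test and open red points did not. Inhba, Id1, Id3 and Bambi lie between 2.31 and 2.54, and Bmpr2 and Id2 at 1.24 and 1.11.

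Per length, Id2 was by far the main ID transcript in both conditions. In FPKM, which also corrects for transcript length, Id2 had 85.5 ± 1.52 in control and 168 ± 4.59 in optimized cultures (SD, n = 3 each). Id3 had 2.24 ± 0.79 against 10.3 ± 2.45 FPKM, and Id1 had 1.65 ± 0.22 against 7.98 ± 2.22 FPKM. Of the summed FPKM of the 4 ID genes, Id2 made up 96.3%, 95.7% and 94.7% in controls, against 92.5%, 89.6% and 88.5% in optimized cultures. Its share was lower in every optimized than in every control library. The share of Id1 was 1.84% ± 0.21 in control and 4.26% ± 0.99 in optimized cultures, and that of Id3 was 2.5% ± 0.87 and 5.49% ± 1.07 (SD, n = 3 each). Over the 8 shares compared in ID genes and receptors, each of these differences gave p = 0.1 by exact permutation (two-sided). This is the lowest value open to 3 against 3 libraries, and it was 0.11 after Benjamini-Hochberg adjustment. The shares of the ID genes are parts of the same sum and depend on each other. The ratio of Id3 to Id1 in FPKM was 1.38 ± 0.55 in control and 1.3 ± 0.08 in optimized cultures (SD, n = 3 each), and the groups overlapped.

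Among the receptors, Bmpr2, the type II receptor specific to BMPs and related growth and differentiation factors, was the one that rose. It is on chromosome 1 from 59802544 to 59918173, and had 58.0, 62.0 and 42.3 CPM in controls against 171, 106 and 106 CPM in optimized libraries. Optimized library 1 stood far above the others, which were nearly equal, and control library 3 was the lowest. Bmpr2 rose 2.36-fold (log2FC 1.24, SE 0.20, adjusted p = 0.0012). Without optimized replicate 1 its log2FC was 0.97 (adjusted p = 1.7e-05).

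Acvr2a, a type II receptor for activins and some BMPs, is on chromosome 2 from 48703743 to 48793283. It had 7.69, 7.30 and 6.59 CPM in control and 11.7, 6.17 and 8.76 CPM in optimized libraries, so the groups overlapped on both sides. Acvr2a did not pass (log2FC 0.30, SE 0.21, adjusted p = 0.33). The value depended on single libraries, at 0.05 (adjusted p = 0.85) without optimized replicate 1 and 0.51 (adjusted p = 0.046) without optimized replicate 2. Its exons share 3081 bases with those of Orc4 on the opposite strand, which had a mean of 575 counts against 185 for Acvr2a, and the strand setting of the counting is not given in the sources used here. Reads of the pair may therefore be mixed, and the log2FC of Orc4 itself was 0.0085.

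Bmpr1a, the widely expressed type I receptor for BMPs, is on chromosome 14 from 34132687 to 34225379. It had 47.3, 44.7 and 43.6 CPM in control and 52.7, 44.4 and 50.4 CPM in optimized libraries, with optimized library 2 inside the range of the controls. Bmpr1a did not pass (log2FC 0.12, SE 0.09, adjusted p = 0.37), and its log2FC lay at -0.0025 when scaled by library size alone.

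Acvr1, a type I receptor that passes on signals of several BMPs, is on chromosome 2 from 58278656 to 58457770. It had 25.9, 24.6 and 22.5 CPM in control and 26.7, 29.4 and 29.0 CPM in optimized libraries. The optimized libraries were all higher by a small step, and Acvr1 did not pass (log2FC 0.22, SE 0.10, adjusted p = 0.12). It passed narrowly without optimized replicate 1 (log2FC 0.27, adjusted p = 0.047).

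The 4 receptors were also compared as shares of their sum. Per length, the type I receptors Bmpr1a and Acvr1 together had 14.1 ± 1.2 FPKM in control and 14.4 ± 0.98 FPKM in optimized cultures (SD, n = 3 each), which gave p = 0.7 by exact permutation (two-sided). The type II receptors Bmpr2 and Acvr2a together had 6.48, 6.79 and 4.61 FPKM in control and 15.8, 8.82 and 9.87 FPKM in optimized libraries, which did not overlap (p = 0.1, the smallest that the exact permutation test allows). Bmpr2 made up 23.2% ± 2.88 of the summed receptor FPKM in control and 38.3% ± 5.89 in optimized cultures, while Bmpr1a went from 37.9% ± 2.13 to 29.1% ± 2.22 (SD, n = 3 each). The share of Acvr1 was 32.5% ± 0.71 and 27.1% ± 4.79, a difference of -5.39 percentage points that was -2.7 without optimized replicate 1. All 3 of these shares gave p = 0.1 by exact permutation and 0.11 after adjustment over the 8 shares. Shares in a library are parts of the same sum, so they are not separate changes. In FPKM itself Bmpr1a had means of 7.56 and 7.48, and Acvr1 of 6.50 and 6.87. The FPKM were used as deposited, without TMM scaling, and the sums above and their p-values rest on them. In CPM after TMM scaling, control and optimized means were 45.2 and 49.2 for Bmpr1a. For Acvr1 they were 24.3 and 28.4 CPM. The share of Acvr2a was 6.42% ± 0.10 and 5.5% ± 1.07, with an exact permutation p-value of 0.2.

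**Figure D3:**
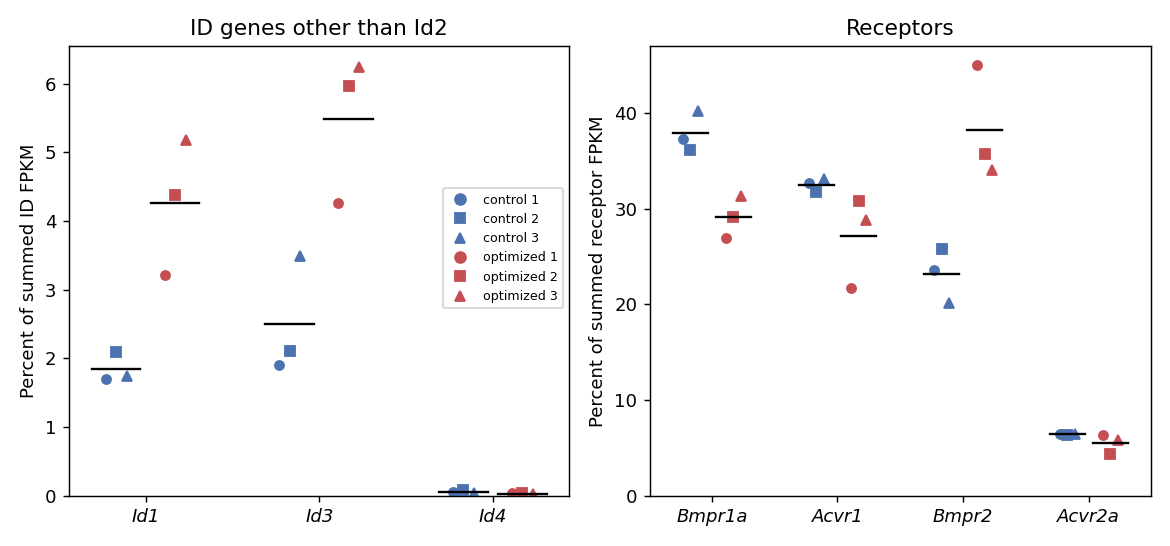
Percent of the summed FPKM of Id1 to Id4 (left; Id2, which holds the remainder, is not drawn) and of the 4 receptors (right) in each library; marker shape gives the replicate number and lines the group means. Id1 and Id3 take larger shares in optimized cultures, and Bmpr2 moves from 23.2% to 38.3% while Bmpr1a falls below it.

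Bambi encodes a transmembrane protein that resembles a type I receptor without the kinase domain and dampens TGF-β, BMP and activin signalling. It is on chromosome 18 from 3507871 to 3516404. Controls held 272, 296 and 371 counts, optimized libraries 1268, 1824 and 1403, a wide gap in relation to the spread within each group. In CPM this was 12.5 ± 0.93 against 68.5 ± 8.83 (SD, n = 3 each). Bambi rose 5.47-fold (log2FC 2.45, SE 0.12), and its adjusted p of 4.5e-07 was the lowest among the 9 genes tested. Relative to the receptor it resembles, Bmpr1a stood at 3.39 ± 0.36 times the FPKM of Bambi in control and 0.683 ± 0.14 times in optimized cultures (SD, n = 3 each). Bambi was below Bmpr1a in every control library and above it in every optimized library.

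Inhba encodes the inhibin βA chain, which forms activin A as a dimer. It is on chromosome 13 from 16186373 to 16206206. Controls held 15, 30 and 9 counts, optimized libraries 93, 99 and 86. The 3 optimized libraries were close to each other, and the low control counts varied more. Inhba rose 5.81-fold (log2FC 2.54, SE 0.37, adjusted p = 0.00052). It reached the filter on low counts through the optimized libraries, where it was high, so its call is a description. Its log2FC was 3.12 without control replicate 2 and 2.16 without control replicate 3. The level stayed low per length, at 0.05 ± 0.03 FPKM in control and 0.27 ± 0.02 FPKM in optimized cultures (SD, n = 3 each).

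In order of FPKM, the control cultures had Id2 first, followed by Bmpr1a and Acvr1, which overlapped, then Bmpr2, then Id3 and Bambi, which overlapped, then Id1, Acvr2a, and Id4 and Inhba at the bottom, which overlapped as well. In optimized cultures Id2 was again first, at 168 FPKM. The next 6 genes, Bambi, Id3, Bmpr2, Id1, Bmpr1a and Acvr1, had means between 6.87 and 11.1 FPKM, and each overlapped its neighbour in this order. Acvr2a followed with 1.45 ± 0.51 FPKM (SD, n = 3), and Inhba now stood apart above Id4.

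Optimized libraries 1 and 2 deviated in opposite directions with gene length. Among all genes tested, the tenth with the greatest length had a median deviation from the group mean of 0.22 (log2) in optimized library 1 and -0.16 in optimized library 2. The tenth with the smallest length had -0.19 and 0.18. Bmpr2 is longer than 94.3% of the genes tested, Id1 longer than 10.4% and Id3 than 7.73%. Optimized library 1 had the highest Bmpr2 and the lowest Id1 and Id3 of its group. Bambi, longer than 73.0%, went against the trend, with deviations of -0.18 and 0.19 in optimized libraries 1 and 2. Inhba, longer than 96.5%, had 0.05 and -0.01. Bmpr1a (75.8%) had 0.10 and -0.14, Acvr2a (73.2%) 0.45 and -0.47, and Id2 (12.1%) -0.09 and 0.08. Whether length accounts for these patterns was not tested. With the length trend removed from each library and the replicate number as a block, the log2FC was 1.11 for Bmpr2, 2.42 for Id1 and 2.36 for Id3, and all 3 passed the test. Id1 and Id3 were at 2.63 and 2.51 without optimized replicate 1, and at 2.34 and 2.19 without optimized replicate 2, where Bmpr2 was at 1.36.

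**Figure D4:**
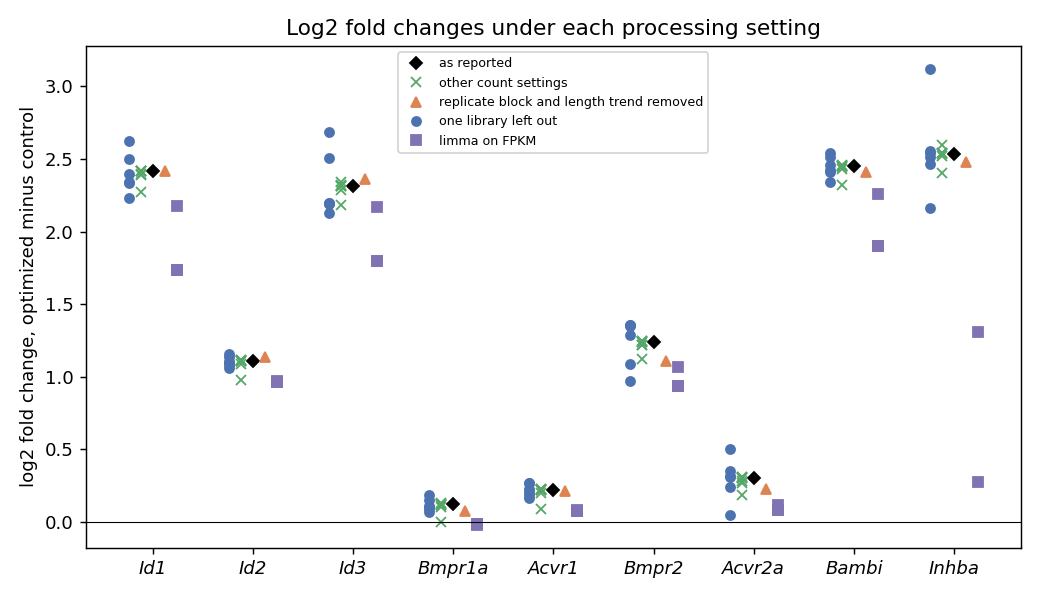
Log2 fold changes (optimized minus control) of the 9 tested genes as reported (black) and under each alternative; points for one library left out are blue. The 6 genes that passed the test stay above 0 in every setting drawn; the lowest value of Inhba, 0.27, comes from log2(FPKM + 1), where its level is far below the pseudocount.

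Markers of other cell types were examined because ID genes and Bambi are also expressed in vessels and glia. In bulk samples, fewer cells of a type and less RNA per cell cannot be told apart. Of the 9 microglia markers, 5 were called higher and 2 lower, against 14.7% and 15.2% of all genes tested. Csf1r, the receptor for IL-34, had means of 2387 CPM in controls and 1817 CPM in optimized cultures. Itgam had 798 and 1410 CPM, P2ry12 15.1 and 42.5 CPM and Tmem119 6.29 and 96.8 CPM (means). These markers were picked for naming after their values were seen. The 6 endothelial markers summed to 81.5 to 97.1 CPM and 274 to 352 CPM. Most of this was Flt1, with 83.0 and 298 CPM, whereas Cldn5 had 0 and 0.03 CPM, Cdh5 1.48 and 1.75 CPM and Pecam1 0.48 and 0.60 CPM (means). The 5 pericyte markers summed to 27.7 to 40.4 and 435 to 621 CPM, of which Cspg4 gave 31.2 and 510 CPM. Of the other pericyte genes, Rgs5 and Kcnj8 had 37 and 6 counts in optimized library 1 and 0 in the other optimized libraries. Controls held at most 1 count of either. Pdgfrb had 18, 30 and 21 counts in control and 21, 7 and 48 counts in optimized libraries 1 to 3. Abcc9 had 2, 0 and 1 counts against 2, 1 and 2. The 6 astrocyte markers summed to 33.4 to 36.2 and 22.1 to 25.7 CPM. Of these only Aldh1l1 was called lower, from 16.5 to 4.64 CPM (means). Slc1a3 had 5.86 and 4.11 CPM, Slc1a2 1.09 and 0.72 CPM and Aqp4 1.63 and 1.42 CPM, also lower but without passing. Gja1 had 5.64 and 7.94 CPM and Gfap 4.18 and 4.68 CPM, higher without passing. The 6 oligodendrocyte markers, led by Mbp, were at 129 to 145 and 160 to 197 CPM, and the 5 neuron markers at 2.05 to 3.41 and 3.93 to 4.26 CPM. In each of these lists 1 gene was called higher and 0 lower by the same edgeR test. They were Mbp (log2FC 0.34, adjusted p = 0.023) and Nefl, from 0.23 to 1.14 CPM (log2FC 2.30, adjusted p = 0.0019). Nefl had 4, 7 and 6 counts in controls and 19, 35 and 21 in optimized libraries. As with Inhba, it reached the filter on low counts through the optimized libraries, so its call is a description. The 6 fibroblast markers had 34.5 to 48.8 CPM in control and 48.5, 31.0 and 151 CPM in optimized libraries 1 to 3. No marker of these lists was at 0 in all 6 libraries. In optimized library 3 the sum was carried by Col1a1, Col1a2, Col3a1 and Dcn, whereas Lum, at 0.53 CPM, was the lowest of its group and Pdgfra, at 4.11 CPM, was below optimized library 1. Without optimized replicate 3 the log2FC was 2.23 for Id1 and 2.19 for Id3. The part of other cell types in the remaining values was not tested.

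The rest of the pathway was read from 73 further genes in 7 lists, of which 34 had enough counts. Of these, 9 were higher and 3 lower by the same test, against 14.7% and 15.2% of all genes tested. Their median log2FC was 0.21. These lists too were chosen with earlier results of these data known, so the counts and median are a description.

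Among 22 BMP and GDF ligands, 6 were tested and 1 was lower, Bmp2, a BMP that many cell types make for themselves or their neighbours. Controls held 295, 308 and 291 counts, optimized libraries 29, 25 and 30, without overlap. Bmp2 was 9.29-fold lower (log2FC -3.22, SE 0.18, adjusted p = 9.5e-07). None of these ligands was called higher, a count of 0 also with DESeq2 and limma, and 1 had an unadjusted p below 0.05 in edgeR. In control cultures it was the ligand with the highest level per length, at 3.44 FPKM, and in optimized cultures Gdf3 was, at 2.11 FPKM. Of the 4 other activin and inhibin subunits only Inhbb was tested, with 2, 5 and 13 counts in controls against 14, 10 and 13, and it did not pass (log2FC 1.10, SE 0.55, adjusted p = 0.18).

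Among 11 further receptors and co-receptors, 7 were tested and 1 was lower, Eng, which encodes endoglin, a co-receptor for BMP9 and TGF-β. Its mean was 18.2 CPM in controls against 12.1 CPM (log2FC -0.58, SE 0.10, adjusted p = 0.0013). Acvrl1, the type I receptor that works with endoglin, had the highest level per length over all 6 libraries through the optimized cultures, at 9.02 FPKM. In controls its 8.55 FPKM was below Rgmb and Acvr1b, at 9.23 and 8.93 FPKM. It did not pass (log2FC 0.22, adjusted p = 0.21). It passed without optimized replicate 1 (log2FC 0.35, adjusted p = 0.0066).

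Among 15 extracellular antagonists and modulators, 4 were tested and 1 was called higher, Fst, which encodes the activin-binding protein follistatin. Controls held 7, 1 and 6 counts, optimized libraries 29, 15 and 19 (log2FC 2.34, SE 0.57, adjusted p = 0.011). Like Inhba, it reached the filter on low counts only through the optimized libraries, where it was high, so its call and its place among the 9 higher genes are a description. Twsg1, a BMP-binding modulator and the most abundant of the list per length, had a log2FC of 0.04 and did not pass.

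**Figure D5:**
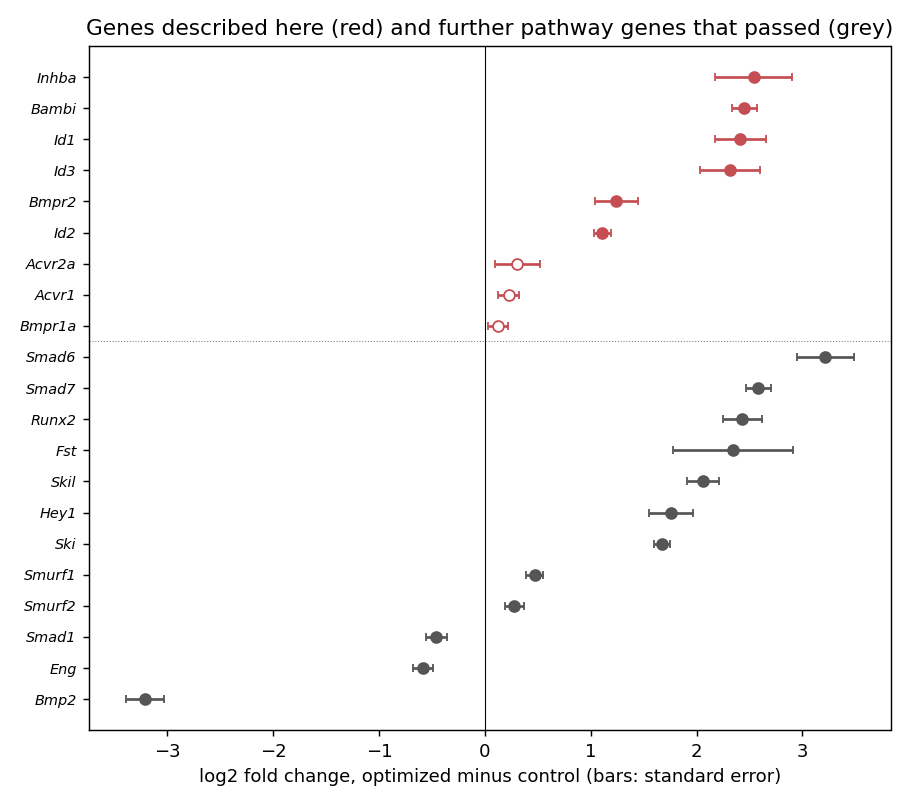
Log2 fold change (optimized minus control) with its standard error for the 9 tested genes described here (red; open where the test was not passed) and for the 12 further pathway genes that passed it (grey). Smad6 and Smad7 are the highest of the further genes and Bmp2 is the lowest, at -3.22.

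Of 11 BMP SMADs and SMAD regulators, 10 were tested, with 5 higher and 1 lower. Smad6, an inhibitory SMAD that acts mainly on BMP receptors, went from 17, 39 and 36 counts to 185, 331 and 236 (log2FC 3.22, SE 0.27, adjusted p = 1.4e-05). Smad1, which BMP receptors phosphorylate, fell from 22.6 to 16.4 CPM, a log2FC of -0.46 (SE 0.10, adjusted p = 0.0062). The co-repressors Ski and Skil rose with log2FC 1.67 and 2.06, and the ubiquitin ligases Smurf1 and Smurf2 had 0.47 and 0.28. The call of Smurf2 was lost without any one of 5 of the 6 libraries, optimized replicate 1 being the exception. Fkbp1a, which binds type I receptors, was the most abundant of the list per length over all 6 libraries and did not pass (log2FC -0.15).

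Of 7 other genes induced by BMP, 3 were tested and all 3 were higher, namely Smad7 (log2FC 2.58), Runx2 (2.43) and Hey1 (1.76). Smad7 and Runx2 are also known to be induced by TGF-β. The 3 E proteins that ID proteins bind, Tcf3, Tcf4 and Tcf12, were all tested. None passed in edgeR, a count of 0 that was also found by unadjusted p below 0.05, in DESeq2 and in limma. The E protein with the highest level per length was Tcf3, with 11.3 and 10.6 FPKM and a log2FC of 0.04 (SE 0.10).

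The genes whose pattern over the 6 libraries was most like that of each gene that rose were named by the Pearson correlation of log2 CPM, among genes with a mean of at least 5 CPM. Id2 and Bambi were among the closest to each other, with r = 0.9997, followed by Olfml3 for Id2 (r = 0.9995) and F11r for Bambi (r = 0.9997). Uap1 and P4ha1 came closest to Id1, Rnf149 and Nucb2 to Id3, Pgm2l1 and Lrrc39 to Bmpr2, and Smurf2 and Qtrt1 to Inhba, with r between 0.9961 and 0.9992. The 6 points fall into 2 groups and share their libraries, and between 188 and 830 genes had r above 0.95 with each of these genes, so such likeness is common here.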

How the data were processed

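The authors aligned paired-end libraries with HISAT2 (mm39) and obtained gene counts with featureCounts in Galaxy. The deposited values are raw counts and, separately, FPKM, both for all 6 libraries. Versions, annotation and strand setting are not given in the sources used here. Count totals were 20628148 to 27261839 per library. The libraries are described as biological replicates.

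The quasi-likelihood test of edgeR 4.0.16 (R 4.3.3) was run on the counts with filterByExpr and TMM factors. It covered 14618 genes, and Benjamini-Hochberg adjusted p below 0.05 was called. Standard errors were taken as the log2 fold change over the square root of F. CPM values are after TMM scaling. FPKM, used as deposited and without TMM scaling, served to compare levels between genes. The gene lengths behind them are not given in the sources used here. Lengths implied by counts and FPKM differed from the GENCODE exon bases in either direction. They were 14934 against 7112 for Inhba and 1306 against 3485 for Id2, so levels compared between genes depend on the lengths used. Alternatives included DESeq2 1.42.0 and limma 3.58.1 on log2(FPKM + pseudocount), a scale that understates changes of low genes. The fits were first tested on simulated data.

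The 10 genes and all lists were chosen with earlier results of these data known. From the pathway lists, the genes that passed and the gene with the highest level of each list are named, and Inhbb as the single tested gene of its list. The 10 genes are all named. The summed microglia marker level is not reported here. The patterns most alike were ranked among genes without predicted symbols. Gene coordinates are from GENCODE M39 on GRCm39, and promoter windows from RefSeq on GRCm38.p6, each matched exactly once to GRCm39.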

Additional observations from a re-analysis of the deposited data

How the results depend on the processing

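The 6 genes that passed the test did so, and kept their direction, under each of the 17 alternatives that gave them a value. Inhba had no value with at least 10 counts in every library or with limma under a mean FPKM minimum of 1, which left 5. The number of the 10 genes called higher was 6 to 7 with 1 library left out, and that called lower was 0 in each of these. Bmpr1a changed sign, without being called, at -0.0025 with library size alone, -0.017 with limma on log2(FPKM + 1) with or without the FPKM minimum, and -0.0195 with log2(FPKM + 0.1). Same-numbered libraries did not deviate together in every pair (r = 0.27, -0.012 and 0.18 for numbers 1 to 3), and with the replicate block the count of higher members was 6. The pathway genes called lower numbered 5 with library size alone, 6 with limma on log2(FPKM + 1), 6 with log2(FPKM + 0.1) and 5 with the FPKM minimum, against 3, and they were 3 to 4 with 1 library left out, when 8 to 12 were higher. Over all genes, 1176 were higher with limma and the FPKM minimum, and 1409 higher and 1464 lower at an adjusted p-value under 0.01. With 1 library left out, 1603 to 2591 were higher and 1646 to 2643 lower, against 2142 and 2218. Genes called higher made up 49.1% of calls with TMM, 32.3% with library size alone and 28.4% with limma and the FPKM minimum. Library size alone placed the median of all genes at -0.12. From raw counts without division by length, the difference in the share of Id4 was -0.086 percentage points and that in the share of Bmpr1a -11.4. With 1 library left out, the differences in shares were 1.95 to 2.94 (Id1), -6.52 to -4.54 (Id2), 2.61 to 3.6 (Id3), -0.037 to -0.016 (Id4), -9.88 to -7.59 (Bmpr1a), -7.26 to -2.7 (Acvr1), 11.7 to 17.2 (Bmpr2) and -1.36 to -0.32 (Acvr2a). The causes were not tested. Depth limits Id4, Inhba and Fst, whose control counts were 30 or fewer.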

Other observations

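In 2 genes of the pathway lists, chosen after their values were seen, 1 optimized library stood far above the others. Dlx5, a homeobox gene induced by BMP in bone, had 0, 0 and 0 counts in control and 48, 1 and 0 counts in optimized libraries 1 to 3, and was not tested. Fstl1, a secreted follistatin-like protein known from mesenchymal cells, had 108, 125 and 154 counts in control and 81, 87 and 326 counts in optimized libraries 1 to 3. Optimized library 3 also had the highest sum of fibroblast markers, 151 CPM, carried by Col1a1, Col1a2, Col3a1 and Dcn.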
